A study of Mus musculus with 6 samples.

Results

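The interleukin 1 (IL-1) system and the response genes of the transcription factor NF-kB were followed through 10 genes, chosen by name and found in all 6 tables, out of 48368 gene symbols. The set holds the ligands Il1a and Il33, the antagonist Il1rn, the receptors Il1r1 and Il1rl1, the feedback genes Nfkbia, Nfkbiz and Tnfaip3, and the acute phase genes Saa3 and Lcn2. RNA came from cultured cancer-associated fibroblasts of mammary tumours in MMTV-PyMT mice, whose mammary epithelium carries a polyomavirus middle T oncogene. There were 3 libraries labelled knockout (KO), from Hic-5-/- tumours, and 3 labelled heterozygous (HET), from Hic-5+/- tumours, so every group carried the oncogene and at least 1 targeted Hic-5 allele, and no wild-type cells were compared. Hic-5, encoded by Tgfb1i1, is an adaptor of focal adhesions. No cytokine was added per the labels, so the values are those of cells in serum-containing culture medium.

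IL-1 alpha and IL-33 are alarmins, held inside cells and released on damage. IL-1 alpha binds the receptor Il1r1, which pairs with the accessory chain Il1rap, and IL-33 binds Il1rl1, also called ST2, with the same accessory chain. Both receptors signal through Myd88 and IRAK kinases to the IKK complex, which marks IkB inhibitors for breakdown and lets NF-kB dimers enter the nucleus. NF-kB then switches on its own brakes, Nfkbia and Tnfaip3 among them. In tumours, this route is known for an inflammatory state of fibroblasts that secrete cytokines, chemokines and acute phase proteins.

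NF-kB is known to act through kappa B sites in promoters, so 4 promoters are shown. Each is the 250 bases before the 5′-most RefSeq transcription start of the gene (GRCm38.p6, given 5′ to 3′ on the strand of the gene). Nfkbia and Tnfaip3 are shown as the feedback genes, and Saa3 and Lcn2 as the acute phase genes. Capitals mark each match to GGAANNNCC, read on both strands, the core shared by many kappa B sites, a motif chosen after the sequences were seen. They are Nfkbia (chr12:55492648-55492897, minus strand), Tnfaip3 (chr10:19015411-19015660, minus strand), Saa3 (chr7:46715677-46715926, minus strand) and Lcn2 (chr2:32387740-32387989, minus strand).
Nfkbia: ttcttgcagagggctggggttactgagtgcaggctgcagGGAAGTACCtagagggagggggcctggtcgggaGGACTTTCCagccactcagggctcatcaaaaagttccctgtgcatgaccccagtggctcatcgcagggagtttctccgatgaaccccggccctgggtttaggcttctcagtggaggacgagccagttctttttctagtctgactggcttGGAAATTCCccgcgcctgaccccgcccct
Tnfaip3: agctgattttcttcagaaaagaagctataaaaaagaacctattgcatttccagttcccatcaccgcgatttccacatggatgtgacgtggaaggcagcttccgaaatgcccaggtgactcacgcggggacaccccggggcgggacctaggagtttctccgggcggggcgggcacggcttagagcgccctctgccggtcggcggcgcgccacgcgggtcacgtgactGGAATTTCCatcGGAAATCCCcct
Saa3: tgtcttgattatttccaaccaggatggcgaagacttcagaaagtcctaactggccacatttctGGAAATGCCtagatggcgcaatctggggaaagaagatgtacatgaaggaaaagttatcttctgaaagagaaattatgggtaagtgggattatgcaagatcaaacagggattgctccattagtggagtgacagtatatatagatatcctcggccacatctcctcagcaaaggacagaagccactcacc
Lcn2: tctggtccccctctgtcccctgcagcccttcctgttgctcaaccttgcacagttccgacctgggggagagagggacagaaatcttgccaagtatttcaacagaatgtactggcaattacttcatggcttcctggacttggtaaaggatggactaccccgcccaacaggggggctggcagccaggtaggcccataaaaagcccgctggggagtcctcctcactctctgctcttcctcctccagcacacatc
Nfkbia held 3 matches, beginning 211, 178 and 29 bases before the start. Tnfaip3 held 2, beginning 24 and 12 bases before the start and separated by a few bases. Saa3 held 1 match, 187 bases before the start, and Lcn2 held none in this window. Of the 9 genes of the set with a window, 3 held a match, and Il1a, Il33, Il1rn, Il1r1, Il1rl1 and Lcn2 held none. Among 27025 genes with a promoter window of the same length, 15.6% held at least 1 match, 1.4% held 2 or more and 0.0814% held 3 or more. The stricter kappa B decamer consensus, which can overlap the first motif, was found in 3.74% of these promoters and, among the 9 genes of the set with a window, in Nfkbia and Tnfaip3. The Lcn2 window and most of the Tnfaip3 window lay inside the gene spans of GENCODE, the source of the gene positions below. Other starts of the same genes were not searched. A match describes letters only, and its absence from one window says nothing of the factor.

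The libraries held between 24954273 and 42470598 estimated counts, and 17584 genes passed the filter on low counts. Levels are CPM (counts relative to the library total, scaled to a common total with TMM factors), and a floor of 3 counts stood at 0.0682 to 0.119 CPM, covering counting error only. Tgfb1i1 stood at 90.3, 0.232 and 156 CPM in KO replicates 1 to 3, against 222, 348 and 125 CPM in HET replicates 1 to 3, so the transcript was plainly present in 2 libraries labelled KO, and all directions below compare labels. KO replicate 2 had the collagen gene Col1a2 at 0.490 CPM against 576 to 5102 CPM in the other 5 libraries, and Col1a1, Thy1 and Dcn were also lowest there, while Vim, at 2866 CPM, and Col3a1, at 21.8 CPM, were above KO replicate 1. The 10 fibroblast markers summed to 5476, 3154 and 6042 CPM in KO replicates 1 to 3, under the 16823, 8039 and 7557 CPM of HET. Of 9 fibroblast markers tested, 8 were lower in KO by the fitted values, against 49.1% of all genes tested. Of these 9, 1 had an unadjusted p under 0.05 in edgeR, and DESeq2 called Col3a1. The part of this difference in the values below was not tested. The 12 epithelial markers summed to 28.5, 90.2 and 29.0 CPM in KO replicates 1 to 3, against 65.8, 18.0 and 19.1 CPM in HET replicates 1 to 3. Krt18 stood at 37.8 CPM in KO replicate 2 and at most 2.93 CPM elsewhere, Cdh1 at 14.6 CPM and at most 1.47 CPM elsewhere, while Krt19 was lowest in KO replicate 2. The epithelial sums overlapped between the labels, with HET replicate 1 above KO replicates 1 and 3. Of 7 epithelial markers tested, 6 were higher in KO by the fitted values, 3 of them at an unadjusted p under 0.05, and DESeq2 called Krt18. Of all genes tested, 50.9% were higher in KO, 8.59% had an unadjusted p under 0.05 in edgeR, and DESeq2 called 1.36%. All 14 leukocyte and macrophage markers were above the floor in KO replicate 3 and HET replicate 2, with summed levels of 1198 and 1701 CPM, against 12.1 to 48.2 CPM in the other 4 libraries. In whole cultures, fewer cells of a type and less RNA per cell cannot be told apart. KO replicate 3 and HET replicate 3 share a title number, the series text speaks of technical triplicates, and no label ties a library to an animal or a culture of its own. The p-values therefore cover the spread among these 6 libraries, which may be technical.

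The IL-1 receptor gene Il1r1 was the only one of the 10 genes whose libraries did not overlap between the labels. Every KO library lay under every HET library, with a fitted level 3.79-fold lower in KO. The IL-1 antagonist Il1rn had its lowest libraries among KO, and Tnfaip3 its highest. The ST2 gene Il1rl1 and the acute phase genes differed more between libraries of a label than between the labels. None of the 9 genes tested passed the adjusted threshold of 0.05 in edgeR's quasi-likelihood test, as none of all genes did (0%, smallest adjusted p = 0.579). At an unadjusted p under 0.05 there were 3 of the 9, 2 lower and 1 higher in KO, where all genes tested gave 1511, or 8.59% (4.29% lower and 4.3% higher in KO). Over all genes this number was 917 when KO replicate 2 was left out, 2281 when KO replicate 3 was left out and 648 when HET replicate 2 was left out. For the 9 genes it was 1 without KO replicate 2 and 1 without HET replicate 1. DESeq2 called 1 of the 9 genes at its adjusted p and 240 of all genes (1.36%, with 0.961% lower and 0.404% higher in KO), and limma-voom called 0, with 1538 genes (8.75%) at an unadjusted p under 0.05. Of the 9 genes, 4 had a fold change above 0 and 5 below 0, where all genes tested gave 50.9% and 49.1%, and the median log2 fold change was -0.12 over the 9 genes and 0.01 over all genes.

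**Figure D1:**
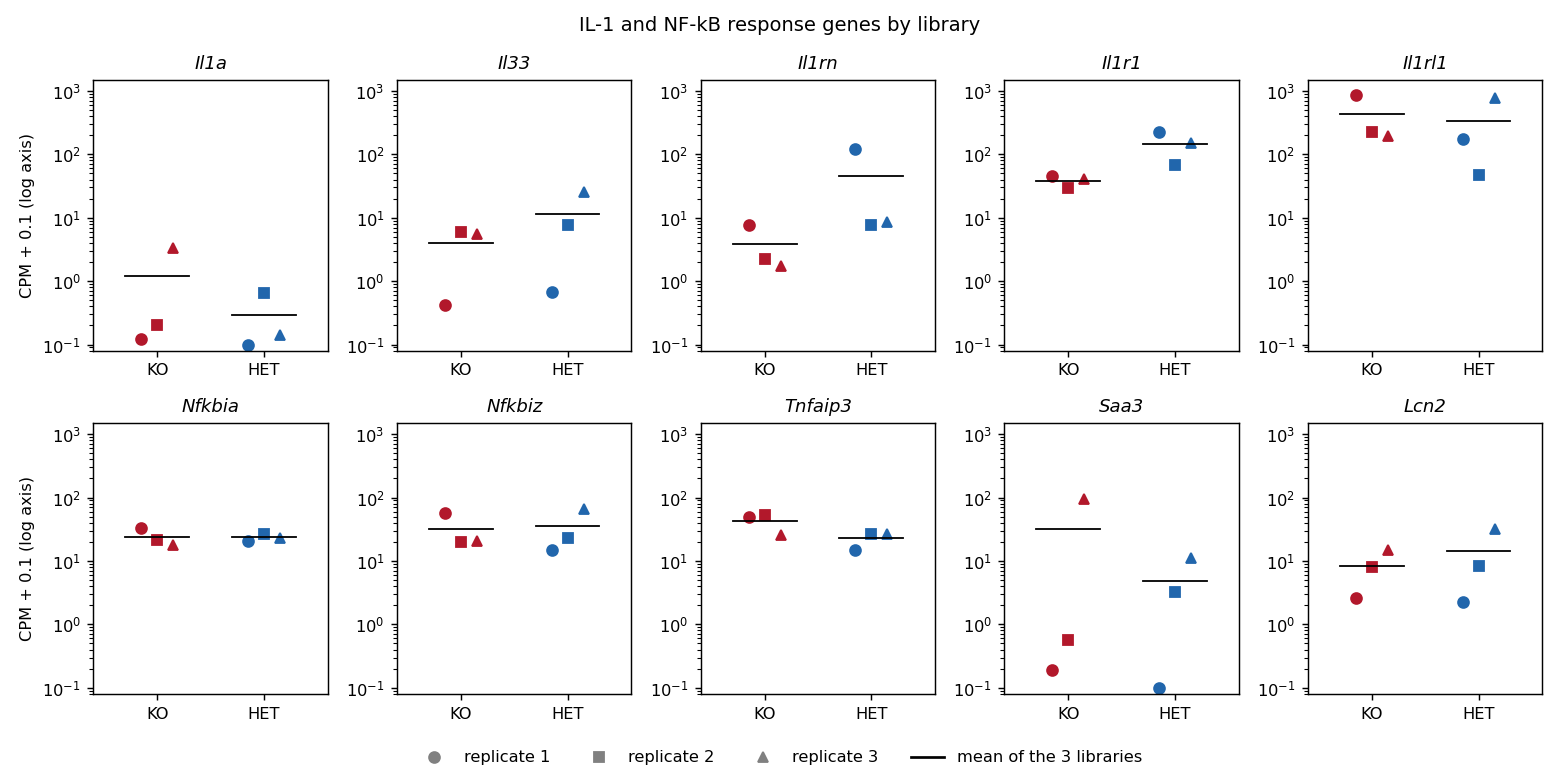
Level of each of the 10 genes in CPM + 0.1 on a log axis, with KO libraries in red on the left and HET libraries in blue on the right. Symbols mark the replicate and black lines the mean of 3 libraries. The groups are separate for Il1r1 and overlap for the other 9 genes.

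Il1r1, the signalling receptor of IL-1 alpha and IL-1 beta, lies on chromosome 1 from 40225080 to 40317257 (GRCm38, plus strand). It stood at 45.1, 29.5 and 40.7 CPM in KO replicates 1 to 3, against 221, 67.7 and 148 CPM in HET replicates 1 to 3. The KO libraries lay close together and the HET libraries spread widely above them. The means were 38.4 ± 8.05 CPM in KO and 145.6 ± 76.6 CPM in HET (SD, n = 3 each), a log2 fold change of -1.92 ± 0.45 (SE; edgeR, unadjusted p = 0.00461, adjusted p = 0.579). Libraries that do not overlap were found for 15.5% of all genes tested, with every KO library under every HET library for 7.42% and over it for 8.1%. Leaving out 1 library at a time gave log2 fold changes from -2.27 to -1.48, and without KO replicate 2 it was -1.76. DESeq2 gave an adjusted p of 0.0160, and over all 17 alternatives the adjusted p ran from 0.0160 to 0.975. An unspliced gene model, Gm38070, overlaps Il1r1 on the same strand, and the sources used here do not give the counting method.

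The antagonist Il1rn encodes IL-1ra, which occupies Il1r1 without signalling. It lies on chromosome 2 from 24336853 to 24351494 (plus strand) and stood at 7.59, 2.14 and 1.66 CPM in KO, against 119, 7.47 and 8.46 CPM in HET. A single library, HET replicate 1, held most of the signal, and KO replicate 1 lay between the other HET libraries. The log2 fold change was -3.56 ± 1.32 (unadjusted p = 0.0336, adjusted p = 0.579), and it was -1.06 without HET replicate 1. DESeq2 gave no p for Il1rn, as it does for a gene with an outlying count. The leukocyte markers summed to 39.6 CPM in HET replicate 1, of which Csf1r gave 20.8 CPM, and 5 of 14 were above the floor. In KO replicate 3 and HET replicate 2, with all 14 above the floor, Il1rn was at 1.66 and 7.47 CPM. The part of leukocytes in the Il1rn value was not tested.

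Il1rl1 (ST2) lies near Il1r1 in a cluster of receptor genes, Il1r2, Il1r1, Il1rl2, Il1rl1, Il18r1 and Il18rap, that runs from 40074079 to 40551705 on chromosome 1, and itself spans 40429570 to 40465415 (plus strand). It stood at 877, 224 and 198 CPM in KO, against 172, 46.9 and 770.0 CPM in HET. KO replicate 1 and HET replicate 3 were the highest, and HET replicate 2 was the lowest. KO over HET gave a log2 fold change of 0.39 ± 1.06 (adjusted p = 0.914). Its sign turned to -0.63 without KO replicate 1 and to -0.12 without HET replicate 2, and it was 1.99 without HET replicate 3. Within the pair of libraries that share a title number, Il1rl1 was lower in KO replicate 3 than in HET replicate 3. Mast cells are known for a high level of ST2, and the 8 mast cell markers summed to 0.248 to 2.35 CPM per library, with Mcpt4 and Fcer1a at 0 in all 6.

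The ratio of Il1rl1 to Il1r1 in CPM, which is not corrected for length and is compared between libraries only, was 19.5, 7.61 and 4.85 in KO replicates 1 to 3, against 0.777, 0.693 and 5.20 in HET replicates 1 to 3. HET replicates 1 and 2 had the lowest ratios, while HET replicate 3 lay between KO replicates 2 and 3, so the groups overlapped.

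The ligands were low. Il1a, on chromosome 2 from 129299610 to 129309972 (minus strand), stood at 0.0227, 0.103 and 3.21 CPM in KO, against 0, 0.540 and 0.0392 CPM in HET. It held 80.62 counts in KO replicate 3, 18.62 in HET replicate 2 and at most 4.47 in any other library, and it did not pass the filter on low counts. In the fit without a filter its log2 fold change was 2.44 ± 1.88 (edgeR adjusted p = 0.717). The highest libraries, KO replicate 3 and then HET replicate 2, were those with all leukocyte markers above the floor, and the part of leukocytes in this value was not tested. A gene model on the opposite strand, Gm14023, overlaps Il1a, and the sources used here do not say whether the counting used strand.

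Il33, on chromosome 19 from 29925114 to 29960718 (plus strand), stood at 0.318, 5.86 and 5.43 CPM in KO, against 0.566, 7.53 and 25.7 CPM in HET. Replicate 1 of each label was low and HET replicate 3 was high. The log2 fold change was -1.54 ± 1.41 (adjusted p = 0.731), and it was -0.07 without HET replicate 3. The cytokine and its receptor ST2 did not share an order across libraries: KO replicate 1 had the lowest Il33 and the highest Il1rl1, while HET replicate 3 was high in both.

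**Figure D2:**
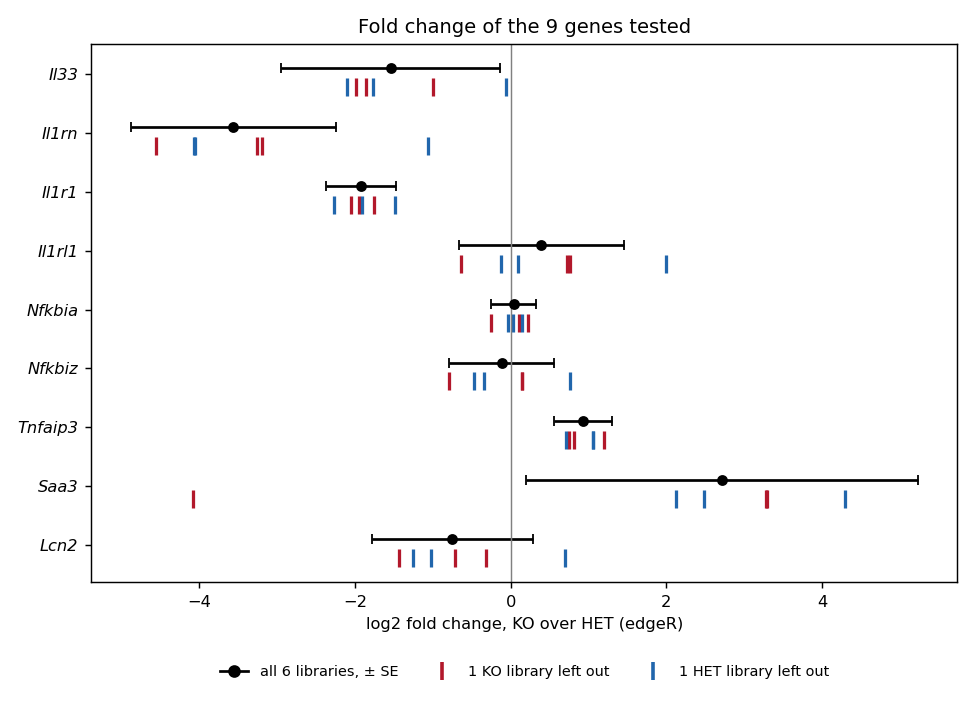
Log2 fold change of KO over HET for the 9 genes tested (black points, ± SE), with ticks for the value when 1 KO library (red) or 1 HET library (blue) is left out. Il1r1 stays between -2.27 and -1.48 under these omissions, while Saa3 turns to -4.08 without KO replicate 3.

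Among the 9 genes tested, the feedback genes had the smallest ranges over libraries. Nfkbia encodes IkB alpha, the inhibitor that NF-kB makes anew to end its own activity, and lies on chromosome 12 from 55489410 to 55492647 (minus strand). It stood at 32.9, 21.6 and 17.8 CPM in KO, against 20.7, 26.8 and 23.0 CPM in HET, so the KO libraries spanned the HET range. KO over HET gave a log2 fold change of 0.04 ± 0.29 (adjusted p = 0.971). Its range over the 6 libraries, 0.85 on the log2(CPM + 1) scale, was under the median of 1.01 over all genes tested, and 38.6% of tested genes varied less.

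Tnfaip3 encodes A20, a ubiquitin-editing enzyme that shuts down signalling to IKK, and lies on chromosome 10 from 19000910 to 19015657 (minus strand). It stood at 49.6, 53.3 and 25.6 CPM in KO, against 14.9, 26.4 and 26.2 CPM in HET. KO replicates 1 and 2 lay above every HET library, and KO replicate 3 lay among them. The means were 42.9 ± 15.1 CPM in KO and 22.5 ± 6.62 CPM in HET (SD, n = 3 each), a log2 fold change of 0.93 ± 0.37 (unadjusted p = 0.0448, adjusted p = 0.579). It ran from 0.71 to 1.198 with 1 library left out, and without KO replicate 2 it was 0.74. Nfkbia and Tnfaip3 differed by a root mean square of 0.53 between their centred log2(CPM + 1) values over 6 libraries. It was the second smallest difference among pairs of the 9 genes. This difference is not scaled to range, and Nfkbia and Tnfaip3 had the smallest ranges of the 9 (0.85 and 1.78). A small value for them need not mean a shared pattern.

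Nfkbiz encodes IkB zeta, a nuclear cofactor that NF-kB induces and that is needed for a second wave of targets, Lcn2 among them. It lies on chromosome 16 from 55811375 to 55838899 (minus strand) and stood at 56.1, 20.1 and 20.3 CPM in KO, against 14.9, 23.1 and 66.8 CPM in HET. The highest libraries were KO replicate 1 and HET replicate 3, which were also the highest for Il1rl1. The log2 fold change was -0.12 ± 0.68 (adjusted p = 0.962), and its sign turned in 8 of 17 alternatives. Lcn2 and Nfkbiz went together in HET replicate 3, where both had their highest value, and apart in KO replicate 1, where Nfkbiz was high and Lcn2 low.

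Saa3 encodes serum amyloid A3, the acute phase protein that mouse stromal cells and macrophages make under IL-1, and lies on chromosome 7 from 46711998 to 46715700 (minus strand). It stood at 0.0909, 0.464 and 93.3 CPM in KO, against 0, 3.15 and 11.2 CPM in HET. A single library, KO replicate 3, held nearly all of the KO signal. The log2 fold change of 2.71 ± 2.52 (adjusted p = 0.736) turned to -4.08 without KO replicate 3, and DESeq2 gave no p for this gene. Leukocyte markers were high in KO replicate 3 (1198 CPM summed) but also in HET replicate 2 (1701 CPM), where Saa3 was at 3.15 CPM, and they were low in HET replicate 3 (48.2 CPM), where it was at 11.2 CPM. The part of leukocytes in the Saa3 value was not tested. Saa3 was wider in range than 99.5% of the genes tested.

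Lcn2 encodes lipocalin 2, an iron-siderophore binding protein induced by IL-1 and NF-kB, and lies on chromosome 2 from 32384633 to 32388252 (minus strand). It stood at 2.48, 7.87 and 14.8 CPM in KO, against 2.12, 8.21 and 31.9 CPM in HET. Each label had a low, a middle and a high library, at nearly matching levels for the lower ones. The log2 fold change was -0.75 ± 1.03 (adjusted p = 0.826) and turned to 0.70 without HET replicate 3. Neutrophils are known for Lcn2, and the 8 neutrophil markers summed to 0.531 to 7.17 CPM per library, with S100a9 at 0.0284 CPM or less.

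The ligand and acute phase genes split the 6 libraries in a way the labels do not. KO replicate 1 and HET replicate 1 were the lowest of their label for Il33, Lcn2, Saa3 and Il1a. HET replicate 3 was the highest HET library for Il33, Lcn2 and Saa3, and KO replicate 3 was the highest KO library for Lcn2, Saa3 and Il1a. Il33 and Lcn2 were the most alike pair among the 9 genes, with a root mean square difference of 0.51 on the same scale. Of the 9 genes tested, 8 had a wider range over libraries than the median gene, with a median range of 3.40 for the 9 against 1.01 for all genes tested. The genes were not matched for level, and adding 1 CPM before the log narrows the range of low genes.

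**Figure D3:**
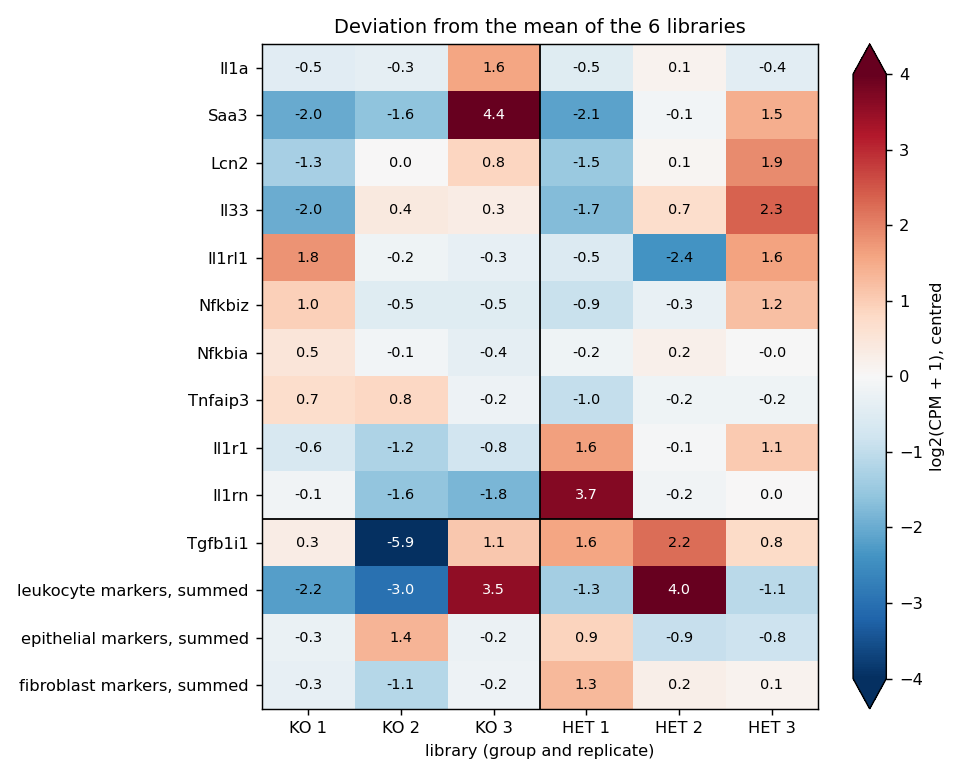
Deviation of log2(CPM + 1) from the mean of the 6 libraries for the 10 genes, Tgfb1i1 and the summed cell type markers, with KO libraries on the left and HET libraries on the right. Red is higher and blue lower. Saa3, Lcn2 and Il33 are low in replicate 1 of both labels, and the leukocyte markers are high in KO replicate 3 and HET replicate 2.

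The genes nearest to each pattern over the 6 libraries were named by the smallest root mean square difference of centred log2(CPM + 1) values among all named genes tested. Since the difference is not scaled to range, it comes out small among genes that vary little. For Il33 the nearest was Cxcl5, a neutrophil-attracting chemokine (0.38), and for Lcn2 it was the protocadherin gene Pcdhgb7 (0.42). Cela1 (0.23) and Steap3 (0.27), a metalloreductase of iron uptake, were nearest to Il1r1. Apoc1, an apolipoprotein (0.42), and Rnf144a, a ubiquitin ligase (0.45), were nearest to Il1rn, and both had their highest level in HET replicate 1, at 24.8 and 103 CPM. Ngef (0.62) and Net1 (0.64), both guanine nucleotide exchange factors, were nearest to Il1rl1. Serpina3i (0.87), of the acute phase serpin family, was nearest to Saa3 and stood at 0.0909, 1.44 and 35.0 CPM in KO, against 0.0708, 0.227 and 9.95 CPM in HET. For Nfkbia, Nfkbiz and Tnfaip3 the nearest were Tmem81 (0.037), Tbc1d8 (0.091) and Pik3c2b (0.17).

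Levels of different genes were set side by side per kilobase of annotated exon, as CPM per kilobase, given as the median and range over the 6 libraries. Il1rl1 led with 30.6 (6.80 to 127). Nfkbia had 13.8 (11.0 to 20.5) and Il1r1 8.86 (4.63 to 34.7). Nfkbiz had 4.33 (2.96 to 13.3), Tnfaip3 3.64 (2.06 to 7.38) and Lcn2 3.06 (0.809 to 12.2). Il33 had 1.95 (0.110 to 8.89), Il1rn 1.36 (0.300 to 21.6), Saa3 0.694 (0 to 35.8) and Il1a 0.0361 (0 to 1.62). Neighbours in this order overlapped in range throughout, so the order of adjacent genes is not fixed by these libraries. The deposited RPKM values were not used for this order, since they matched division by the whole gene span, introns included, for 91.4% of 12143 genes compared.

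Beyond the 10 genes, 112 further genes of the route were followed in 8 lists, of which 93 were tested. Of these, 41 were higher and 52 lower in KO, with a median log2 fold change of -0.09, where 50.9% of all genes tested were higher and the median was 0.01. None passed edgeR's adjusted threshold. At an unadjusted p under 0.05 there were 12 (12.9%), 6 in each direction, against 8.59% of all genes tested, and 7 without KO replicate 2. DESeq2 called 4, namely C3, Irak3, Mmp9 and Traf1, against 1.36% of all genes tested.

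Of the other IL-1 family ligands and binding proteins, 5 of 8 had no library above 3 counts. Il1b, the secreted agonist of macrophages, was among them at 0.0284 CPM or less. Il18 stood at 0.159, 7.17 and 1.94 CPM in KO, against 2.55, 2.10 and 2.35 CPM in HET (log2 fold change 0.41 ± 1.10). Its binding protein Il18bp had a log2 fold change of 0.73 ± 0.55. Of the receptors, 3 of 8 were tested. The shared accessory chain Il1rap stood at 14.0, 47.0 and 33.4 CPM in KO, against 42.6, 46.4 and 44.9 CPM in HET, so only KO replicates 1 and 3 lay under the HET libraries (log2 fold change -0.50 ± 0.42). The IL-36 receptor Il1rl2, next to Il1r1 in the cluster, stood at 13.3, 0.206 and 34.8 CPM in KO, against 87.6, 26.8 and 79.1 CPM in HET (-2.003 ± 1.36). Il18rap, the accessory chain of the IL-18 receptor at the other end of the cluster, stood at 14.7, 61.3 and 6.30 CPM in KO, against 3.33, 2.30 and 8.93 CPM in HET (2.50 ± 0.96, unadjusted p = 0.0384, adjusted p = 0.579). By the fitted values, Il1r1 and Il1rl2 were lower and Il18rap higher in KO, where 49.1% of all genes tested were lower and 50.9% higher. Libraries of the 2 labels overlapped for Il1rl2 and Il18rap, and KO replicate 2 was the lowest library for Il1rl2 and the highest for Il18rap.

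**Figure D4:**
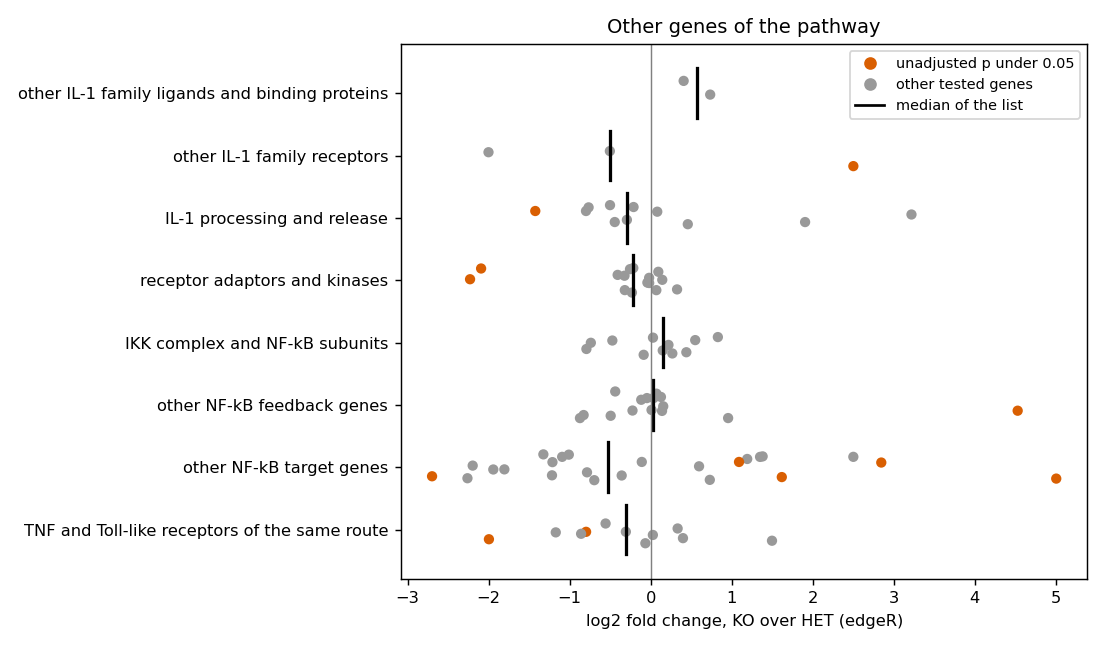
Log2 fold change of KO over HET for the tested genes of the 8 pathway lists, 1 point per gene. Orange points have an unadjusted p under 0.05, and black bars are list medians. They run from -0.53 for the other NF-kB target genes to 0.57 for the other ligands and binding proteins, from 2 genes, Il18 and Il18bp. Both of these medians change sign with 1 library left out. The first is 0.07 without HET replicate 2, and the second is -0.54 without KO replicate 2.

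Genes of IL-1 processing and release had 4 higher and 7 lower of 11 tested, with a median of -0.29. Casp4, the caspase of the noncanonical inflammasome, stood at 1.34, 2.61 and 3.13 CPM in KO, against 6.30, 6.82 and 5.88 CPM in HET, without overlap (-1.43 ± 0.41, adjusted p = 0.579). Aim2, a DNA sensor, had 15.8 CPM in KO replicate 2 and at most 1.11 CPM elsewhere. KO replicate 2, the library with the highest epithelial markers, was also the highest for Il18, Il18rap and Traf1, and the part of epithelial cells in these 4 genes was not tested. Gsdme, a pore-forming gasdermin found under its older symbol Dfna5, had a log2 fold change of 0.46 ± 0.32.

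Receptor adaptors and kinases had 4 higher and 11 lower of 15, with a median of -0.22. Irak3, the kinase-dead IRAK that restrains the receptor complex, stood at 2.66, 4.57 and 14.9 CPM in KO, against 30.4, 32.6 and 40.3 CPM in HET, also without overlap. Its log2 fold change was -2.23 ± 0.65 (edgeR adjusted p = 0.579, DESeq2 adjusted p = 0.0456). Peli2, a ubiquitin ligase of IRAKs, stood at 3.36, 4.33 and 11.2 CPM in KO, against 29.4, 40.1 and 11.0 CPM in HET (-2.09 ± 0.66). Myd88, the central adaptor, had a log2 fold change of -0.41 ± 0.25.

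The IKK complex and NF-kB subunits had 7 higher and 4 lower of 11, with a median of 0.15, and none reached an unadjusted p under 0.05. Nfkb1, which encodes p105 and p50, stood at 53.1, 71.8 and 52.2 CPM in KO, against 51.8, 41.6 and 37.2 CPM in HET (0.44 ± 0.22). Ikbkg, the regulatory subunit NEMO, had -0.79 ± 0.35, and Ikbke had -0.74 ± 0.34. Rela, the p65 subunit, named here after its values were seen, stood at 85.6, 96.0 and 67.3 CPM in KO, against 71.2, 68.6 and 67.1 CPM in HET.

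The other feedback genes had 9 higher and 7 lower of 16, with a median of 0.02. Traf1, an adaptor of TNF receptors induced by NF-kB, stood at 5.13, 20.0 and 1.19 CPM in KO, against 0.0354, 0.284 and 0.823 CPM in HET (4.53 ± 1.39, edgeR adjusted p = 0.579, DESeq2 adjusted p = 0.0169). Bcl3 had -0.87 ± 0.61 and Tnip2, a partner of A20, had -0.44 ± 0.23.

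The other NF-kB target genes, 24 tested of 31, were split, with 10 higher and 14 lower and a median of -0.53. That median was 0.07 without HET replicate 2, 0.08 without HET replicate 3 and -1.07 without KO replicate 3. C3, the central complement component, stood at 27.3, 26.4 and 19.2 CPM in KO, against 219.6, 53.3 and 201 CPM in HET, without overlap. Its log2 fold change was -2.70 ± 0.55 (edgeR adjusted p = 0.579, DESeq2 adjusted p = 0.000703). The KO libraries of C3 lay close together under widely spread HET libraries, as those of Il1r1 did. Mmp9, a gelatinase, stood at 23.3, 3.92 and 2.18 CPM in KO, against 0.354, 0.426 and 0.118 CPM in HET (5.01 ± 1.13, edgeR adjusted p = 0.579, DESeq2 adjusted p = 0.000204). Lif, a cytokine of the IL-6 family, stood at 48.4, 33.1 and 78.9 CPM in KO, against 9.52, 24.5 and 18.3 CPM in HET (1.62 ± 0.46, edgeR adjusted p = 0.579, DESeq2 adjusted p = 0.0720). These 3 genes, named for the smallest unadjusted p of the list, lay on both sides. C3 was lower and Mmp9 and Lif higher in every KO library than in any HET library. Of all genes tested, 15.5% had libraries without overlap, 7.42% with KO under HET and 8.1% with KO over HET.

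The TNF and Toll-like receptors had 4 higher and 7 lower of 11, with a median of -0.31. Tnfrsf1a, the main TNF receptor of fibroblasts, stood at 169, 85.7 and 84.3 CPM in KO, against 215, 185 and 190 CPM in HET, without overlap (-0.80 ± 0.32, edgeR adjusted p = 0.579). Tlr1 was low and stood at 0.182, 1.39 and 1.19 CPM in KO, against 4.21, 3.52 and 3.29 CPM in HET (-1.998 ± 0.73, edgeR adjusted p = 0.579). Tlr2, its partner in sensing bacterial lipoproteins, had 1.50 ± 0.79 with overlapping libraries.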

How the data were processed

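For 3 KO and 3 HET libraries the authors deposited estimated counts and RPKM values by gene. Builds GRCm38 and mm10 and the tools Bowtie2, Partek and cutadapt 1.2.1 are named, per the submitters' processing notes. For annotation and counting, the sources used here give no method. Per the labels' protocols, libraries were stranded total RNA after removal of ribosomal RNA. Rows with values shifted by a column were left out, symbols on more than 1 row were summed, and estimated counts were rounded. Groups followed the genotype label. Genes were filtered with filterByExpr, scaled by TMM and tested with the quasi-likelihood test of edgeR 4.0.16 (R 4.3.3), as a two-sided test of KO over HET, adjusted by Benjamini-Hochberg over 17584 genes at 0.05. The procedure was tested on simulated data. Alternatives were other scalings and filters, DESeq2 1.42.0, limma 3.58.1 (voom, and log2 of RPKM plus 1 or 0.1), a replicate block by title number, and fits that left libraries out. Positions came from GENCODE M21 (GRCm38) and promoters from RefSeq (GRCm38.p6), which held a window for 9 of the 10 genes. All 10 genes were named, then up to 3 tested genes of smallest unadjusted p per pathway list and up to 2 genes of most similar pattern, of which 1 is not reported here. The genes and lists were chosen with earlier results of these data known. The authors' RPKM values served only in the alternatives.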

Additional observations from a re-analysis of the deposited data

How the results depend on the processing

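No gene passed edgeR's adjusted threshold in any edgeR or limma alternative run, and with each library left out the count was 0 to 0 for all genes and 0 to 0 for the 9 genes tested. DESeq2 called 240 genes in all and 1 of the 9, Il1r1; the cause was not tested. The direction of Il33, Il1rn, Il1r1 and Tnfaip3 held under all 17 alternatives, although Il1r1 was -0.68 on the log2(RPKM + 1) scale, which understates low values. KO replicate 3 and HET replicate 3 share only a title number. With that number as a replicate block, 1056 genes had an unadjusted p under 0.05, 2 of the 9 genes did, and 7 genes of the pathway lists did; Nfkbiz turned to 0.16 and Saa3 to -0.92. Without both of these libraries, Nfkbiz was 0.99 and Saa3 -2.54. Nfkbiz was 0.049 with limma-voom, 0.023 on log2(RPKM + 1) and 0.099 on log2(RPKM + 0.1). With 1 library left out, log2 fold changes ran from -0.79 to 0.76 for Nfkbiz, from -4.08 to 4.30 for Saa3, from -0.63 to 1.99 for Il1rl1, from -0.26 to 0.22 for Nfkbia and from -1.43 to 0.70 for Lcn2. The causes of these turns were not tested. With 3 libraries a label and totals of 24954273 to 42470598 counts, Il1a was at or under 3 counts in 3 libraries and was left out of the fit by the filter on low counts.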

Other observations

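Among the NF-kB targets not chosen by the naming rule, the cytokine Il6 and the chemokines Cxcl1 and Ccl2 are given because they are widely used readouts of IL-1 in fibroblasts, and they were chosen after their values were seen. Il6 stood at 0.454, 0.310 and 15.4 CPM in KO, against 19.5, 44.7 and 9.40 CPM in HET (log2 fold change -2.20 ± 1.51, edgeR adjusted p = 0.661). Cxcl1 stood at 0.0454, 10.0 and 4.91 CPM in KO, against 18.0, 12.2 and 4.50 CPM in HET (-1.21 ± 1.37, edgeR adjusted p = 0.779). Ccl2 stood at 82.4, 9.70 and 143 CPM in KO, against 85.0, 242 and 53.4 CPM in HET (-0.70 ± 0.96, edgeR adjusted p = 0.827). Libraries of both labels overlapped for all 3 genes. KO replicate 3, the KO library highest in Saa3 and Lcn2, was also the KO library highest in Il6 and Ccl2, while Cxcl1 was highest in KO replicate 2.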
